A study of Rattus norvegicus with 7 samples.

Results

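Sites where the nuclear receptor NR2F2 and the TEA domain factor TEAD1 lie together were mapped in S16, an established rat Schwann cell line grown with no treatment. All peaks of the NR2F2 list were set against all peaks of the TEAD1 list, mitochondrial peaks were dropped, and peaks with at least 1 bp in common were taken as shared. By this rule 10030 of 41812 NR2F2 peaks met a TEAD1 peak and 10044 of 26404 TEAD1 peaks met an NR2F2 peak, in 10159 overlapping pairs. Both maps come from CUT&RUN, in which an antibody directs micrococcal nuclease to the bound protein and the released DNA is sequenced. Lists of the same cells for YY1 and RXRG (CUT&RUN) and for acetylated lysine 27 of histone H3 (H3K27ac, ChIP-seq), and a ChIP-seq list of SREBP1 from wild-type sciatic nerve at postnatal day 15, served to describe them. Every target has 1 library from 1 cell line or tissue, so there is no replicate error and no test. The files hold positions without heights, so that depth is unknown and strong peaks cannot be told from weak ones. Intervals at 95% are Wilson intervals over peaks. They cover counting only and are too narrow where neighbouring peaks depend on each other.

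NR2F2, also called COUP-TFII, is an orphan nuclear receptor that binds direct repeats of the nuclear receptor motif, alone or with partners such as the retinoid X receptors. TEAD1 contacts DNA for the co-activators YAP and TAZ, the effectors of Hippo signalling, which Schwann cells need for proliferation, axon sorting and myelination. YY1 is a zinc finger protein found at promoters and enhancers, and Schwann cells need it to myelinate. RXRG is the retinoid X receptor of the gamma type, a dimer partner of many nuclear receptors. SREBP1 activates genes of lipid synthesis, and H3K27ac marks active promoters and enhancers.

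NR2F2 and TEAD1 met at 24.0% of NR2F2 peaks (95% interval 23.6 to 24.4%) and at 38.0% of TEAD1 peaks (37.5 to 38.6%), the NR2F2 list being the longer one. Nearly all of the meetings joined 1 peak to 1 peak: 9902 NR2F2 peaks had a single TEAD1 partner, 127 had 2 and 1 had 3. On the TEAD1 side, 9930 peaks had a single NR2F2 partner, 113 had 2 and 1 had 3. A further 4 NR2F2 peaks abutted a TEAD1 peak without a base in common and were not counted.

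Most shared sites also held YY1. A YY1 peak lay on 8769 of the 10030 shared NR2F2 peaks, or 87.4% (86.8 to 88.1%), against 36.9% of all NR2F2 peaks. Among NR2F2 peaks without TEAD1 it was 20.9%. Seen from the TEAD1 list, 87.0% of shared peaks held YY1, against 72.3% of all TEAD1 peaks and 63.2% of those without NR2F2. Read the other way, 56.9% of NR2F2 peaks with YY1 (56.1 to 57.7%) met TEAD1, and 4.78% of those without YY1 did (4.53 to 5.04%). For TEAD1 peaks the step was smaller, from 17.8% meeting NR2F2 without YY1 to 45.8% with it. The 1261 shared NR2F2 peaks without YY1 are the smaller class described below.

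The assignment of YY1 hardly depended on which peak was asked. In 8840 of the 10159 pairs YY1 met both peaks and the bases they share, and in 1252 it met neither peak. Only 53 pairs had YY1 on the NR2F2 peak alone and 14 on the TEAD1 peak alone.

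Shared sites lay mostly in acetylated chromatin, and the class without YY1 less so. Of the shared NR2F2 peaks, 9305 or 92.8% (92.2 to 93.3%) met an H3K27ac peak, against 65.4% of all NR2F2 peaks. Of the shared TEAD1 peaks, 92.4% did, against 76.4% of all TEAD1 peaks. The share was 96.5% for shared NR2F2 peaks with YY1 and 67.0% (64.4 to 69.6%) for those without. NR2F2 peaks without TEAD1 gave 93.4% with YY1 and 47.1% without it. Acetylation thus went with YY1 in both classes, and among NR2F2 peaks that lacked YY1 it was more frequent where TEAD1 was present. For TEAD1 peaks lacking YY1 the figures were 66.9% with NR2F2 and 35.1% without. Each list entering these classes is itself concentrated in acetylated chromatin, which raises every share of a peak that meets it.

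Within acetylated chromatin the division by YY1 persisted. NR2F2 peaks in H3K27ac met TEAD1 at 57.7% when they held YY1 and at 6.67% when they did not. Outside H3K27ac the shares were 41.5% of 745 peaks (38.0 to 45.0%) and 3.03% of 13715 peaks (2.76 to 3.33%). The presence of YY1 therefore separated NR2F2 peaks by TEAD1 more sharply than acetylation did.

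The retinoid X receptor RXRG was found at 53.3% of shared NR2F2 peaks (52.3 to 54.3%), against 34.8% of all NR2F2 peaks. Split by YY1, the excess was seen among peaks without YY1 and not among those with it. With YY1, RXRG lay on 55.4% of NR2F2 peaks that met TEAD1 (54.4 to 56.5%) and on 55.8% of those that did not (54.7 to 57.0%). The difference was -0.416 percentage points, with an interval from -2.65 to 1.82 when the bounds of the 2 shares are set against each other. Without YY1, RXRG lay on 38.6% of shared NR2F2 peaks (36.0 to 41.3%) and on 21.8% of the others (21.3 to 22.3%).

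From the TEAD1 side, RXRG separated the peaks strongly. RXRG lay on 21.8% of all TEAD1 peaks, on 50.3% of those that met NR2F2 (49.3 to 51.3%) and on 4.39% of those that did not (4.09 to 4.72%). Of the 5769 TEAD1 peaks with RXRG, 87.5% also met NR2F2 (86.7 to 88.4%), compared with 24.2% of the 20635 without RXRG. This held with YY1 (88.1% against 30.0%) and without YY1 (82.6% against 12.3%). NR2F2 peaks were divided less by RXRG, with 36.8% of those with RXRG and 17.2% of those without it meeting TEAD1. Among NR2F2 peaks with YY1 the shares were 56.7 and 57.1%, and among those without YY1 8.17 and 3.79%.

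Nerve SREBP1 was present at 31.1% of shared NR2F2 peaks, against 11.4% of all NR2F2 peaks, and at 31.7% of shared TEAD1 peaks, against 25% of all TEAD1 peaks. It was almost confined to the YY1 class, with 35.3% of shared NR2F2 peaks with YY1 (34.3 to 36.3%) and 2.14% of those without (1.48 to 3.10%), or 27 of 1261 peaks. This was not particular to shared peaks. NR2F2 peaks without TEAD1 held SREBP1 at 22.2% with YY1 and 0.688% without it. The SREBP1 list comes from nerve and not from S16, so that it shows where a site is bound in another tissue.

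**Figure D1:**
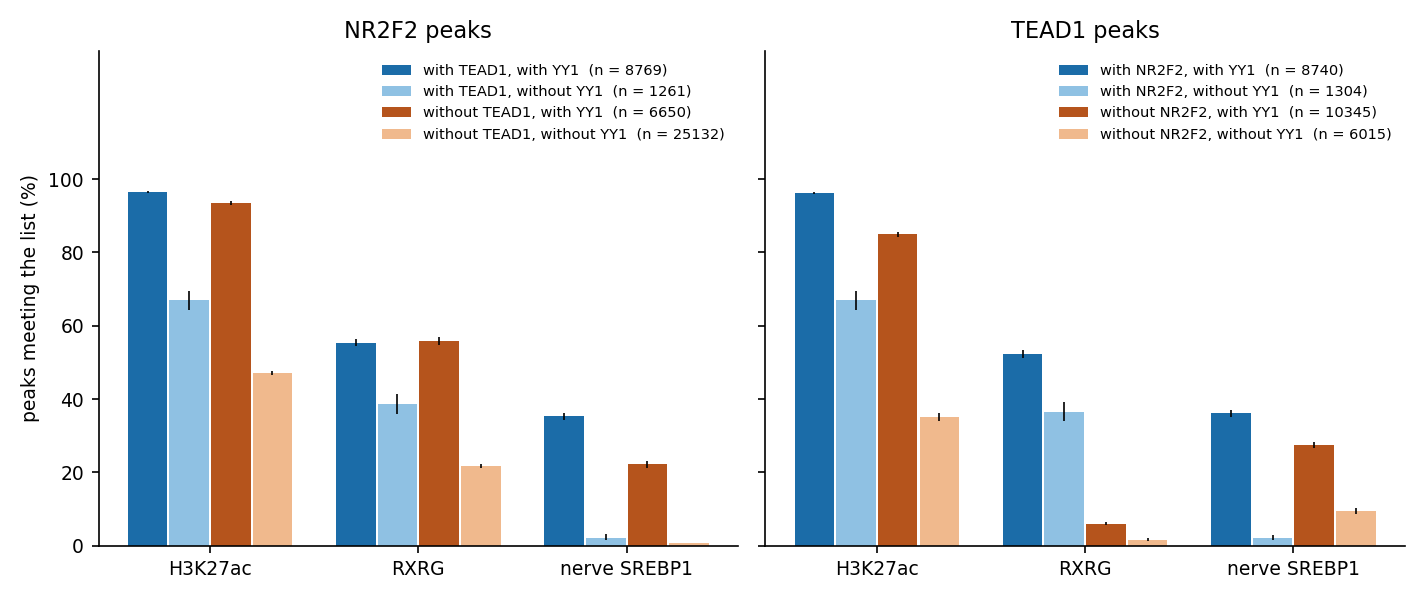
Share of NR2F2 peaks (left) and TEAD1 peaks (right) that meet an H3K27ac, RXRG or nerve SREBP1 peak by at least 1 bp, in 4 classes set by the other factor and YY1 (vertical axis in percent, error bars 95% Wilson intervals over peaks). RXRG stands at 55.4 and 55.8% on NR2F2 peaks with YY1 whether or not TEAD1 is there, and on TEAD1 peaks with YY1 it goes from 5.98% without NR2F2 to 52.3% with it.

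Peaks at shared sites were wide in both lists. NR2F2 peaks that met TEAD1 had a median width of 427 bp (25th to 75th percentile 287 to 605 bp) and the others 281 bp (220 to 383 bp). TEAD1 peaks that met NR2F2 had a median of 350 bp (239 to 511 bp) and the others 276 bp (201 to 398 bp). A wide peak meets any list more readily, and the part of this in the differences was not tested. TEAD1 peaks were wider with YY1. With YY1 the median was 379 bp with NR2F2 (261 to 539 bp) and 329 bp without it (234 to 452 bp), whereas without YY1 it was 215 bp (182 to 279 bp) and 214 bp (180 to 286 bp). Split by H3K27ac, the order by NR2F2 varied. With YY1 the medians were 383 bp with NR2F2 and 336 bp without it inside H3K27ac, and 274 and 290 bp outside. Without YY1 they were 215 and 235 bp inside, and 214 and 205 bp outside. NR2F2 peaks were wider with TEAD1 in both YY1 classes, 442 against 353 bp with YY1 and 340 against 269 bp without.

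**Figure D2:**
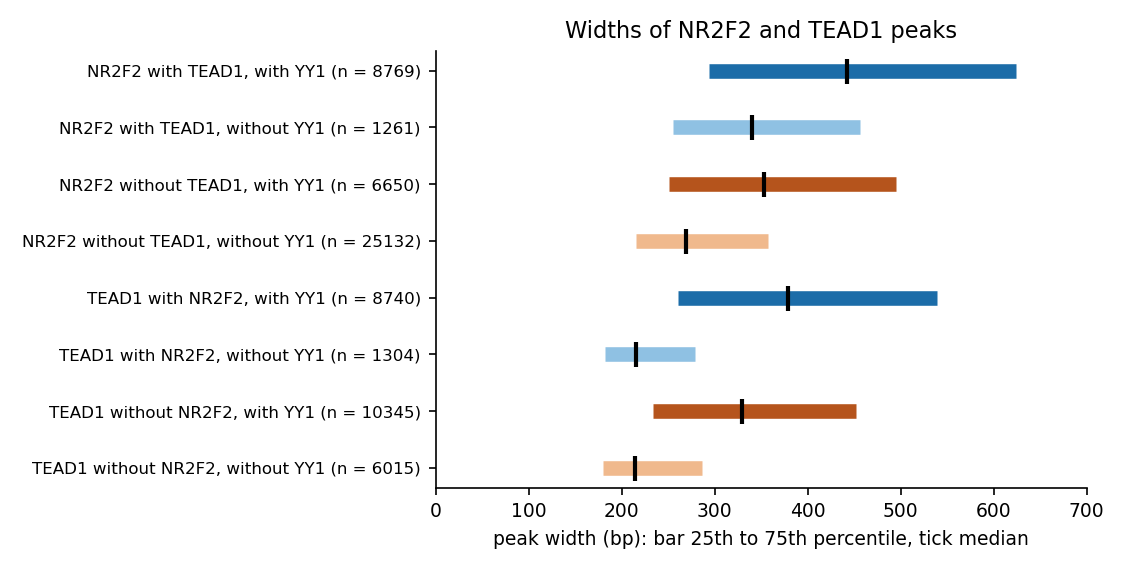
Widths in bp (horizontal axis) of NR2F2 and TEAD1 peaks in 4 classes each, bars from the 25th to the 75th percentile and ticks at the median. The TEAD1 classes without YY1 sit at 215 and 214 bp with and without NR2F2, below both TEAD1 classes with YY1.

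The narrowest NR2F2 peaks met TEAD1 far less often than the widest, and the YY1 classes stayed apart at every width. Over 4 width classes of NR2F2 peaks (203 to 229, 230 to 303, 304 to 435 and 436 to 3470 bp), the share with TEAD1 was 10.2, 17.0, 22.7 and 46.2%. For peaks with YY1 it was 43.3, 50, 52.0 and 66.8%, and for peaks without YY1 2.13, 4.34, 5.96 and 9.54%. The narrowest peaks with YY1 thus met TEAD1 more often than the widest without it. YY1 peaks are themselves wide, with a median of 439 bp over the list, and their width was not held here.

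Holding the width of NR2F2 peaks changed the picture of RXRG. The equal shares of RXRG on NR2F2 peaks with YY1 were made of lower shares with TEAD1 in each width class. In the narrowest class, RXRG lay on 18.7% of peaks with TEAD1 (16.3 to 21.4%) and on 34.7% of those without (32.0 to 37.5%). The pairs of shares were 31.4 and 43.4% in the second class, 49.8 and 54.7% in the third, and 73.0% (71.7 to 74.3%) and 75.9% (74.1 to 77.6%) in the widest, where the intervals overlap. Without YY1 the order was the opposite, from 14.4 against 13.2% in the narrowest class, where the intervals overlap, to 60.8 against 46.2% in the widest. On TEAD1 peaks with YY1, RXRG stayed between 50 and 57.5% with NR2F2 and between 5.06 and 7.60% without it over 4 classes of TEAD1 width.

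**Figure D3:**
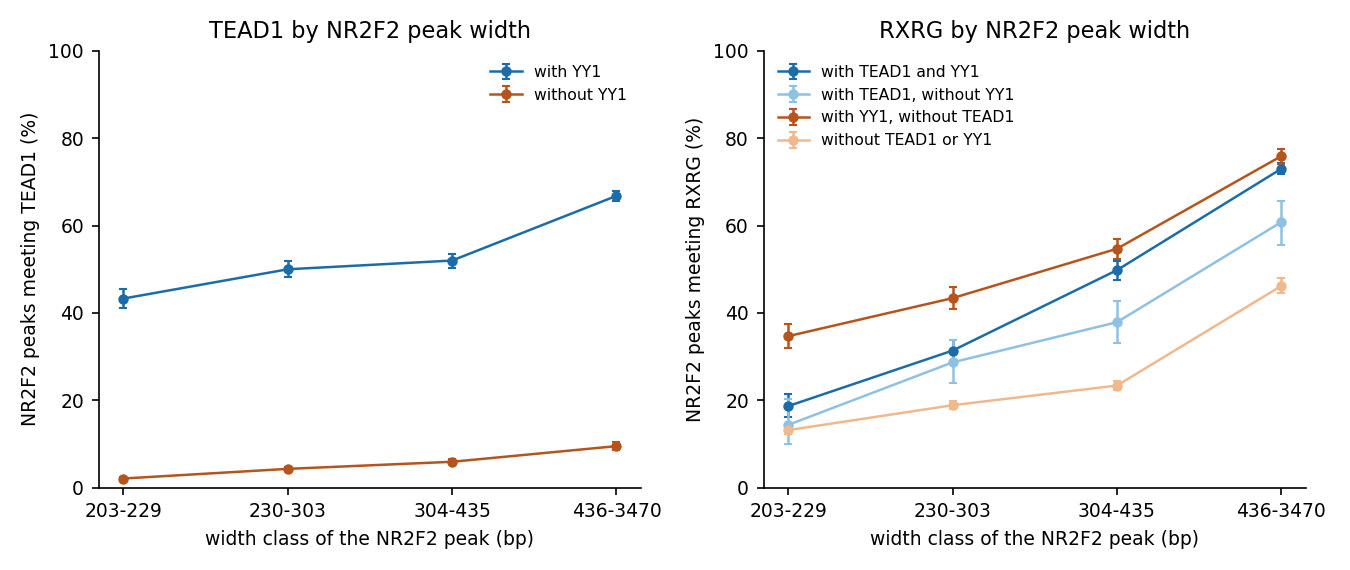
Share of NR2F2 peaks that meet TEAD1 (left) and RXRG (right), in percent, by the width class of the NR2F2 peak in bp, with 95% Wilson intervals over peaks. On the left the line with YY1 runs from 43.3 to 66.8% and the line without it from 2.13 to 9.54%, and on the right NR2F2 peaks with YY1 hold RXRG less often with TEAD1 than without it in each class.

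The 2 peaks of a pair overlap by the rule that chose them, which keeps the offset below the mean of their widths. The values below describe the pairs within that limit. The distance between their midpoints had a median of 81 bp (25th to 75th percentile 32 to 166 bp), and it was at most 50 bp in 35.7% of pairs, at most 100 bp in 57.1% and at most 200 bp in 82.0%. The files give no strand, so the offset has no direction. The TEAD1 midpoint lay within the NR2F2 peak in 85.6% of pairs and the NR2F2 midpoint within the TEAD1 peak in 79.5%. In 37.2% of pairs the NR2F2 peak enclosed the whole TEAD1 peak, in 16.4% it lay inside the TEAD1 peak, and in 46.4% the overlap was partial. Under 50% of the shorter peak was covered in only 6.94% of pairs. Where YY1 was absent the TEAD1 peak was enclosed in 52.1% of pairs, and where YY1 was present in 35.1%. Inside H3K27ac the shares were 58.7 and 35.2%. Outside H3K27ac they were 38.8% (34.2 to 43.5%) and 33.0% (28.0 to 38.4%), where the intervals overlap. The part of peak width in this was not tested.

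Pairs without YY1 were closer in bp, and much less so in relation to their width. The median offset was 54 bp without YY1 (23.5 to 110 bp, 1266 pairs) and 86.5 bp with it (34.5 to 173 bp, 8893 pairs). The peaks were narrower too, with a median NR2F2 width of 342 against 447 bp and a median TEAD1 width of 216 against 381 bp. Divided by the mean width of the 2 peaks, the offset was 0.190 without YY1 and 0.205 with it. Among pairs with an NR2F2 peak under 300 bp and a TEAD1 peak under 300 bp, the medians were 34 bp (408 pairs) and 37 bp (834 pairs). Where NR2F2 was from 300 to 450 bp and TEAD1 under 300 bp, they were 49.5 bp without YY1 and 53.5 bp with it. Where NR2F2 was 450 bp or more and TEAD1 under 300 bp, the gap was larger, 108 bp (239 pairs) against 132 bp (1290 pairs). With TEAD1 peaks of 300 bp or more, of which few pairs lacked YY1, the order varied. The medians were 113 bp without YY1 (86 pairs) and 97.5 bp with it for NR2F2 under 300 bp, 54.8 and 78.5 bp for NR2F2 from 300 to 450 bp (82 pairs without YY1), and 55.5 and 97 bp above (91 pairs). The widths of the 2 peaks of a pair were only loosely related across pairs (Spearman's rho 0.16, Pearson's r of log2 widths 0.17, 10159 pairs that share the same 2 libraries).

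**Figure D4:**
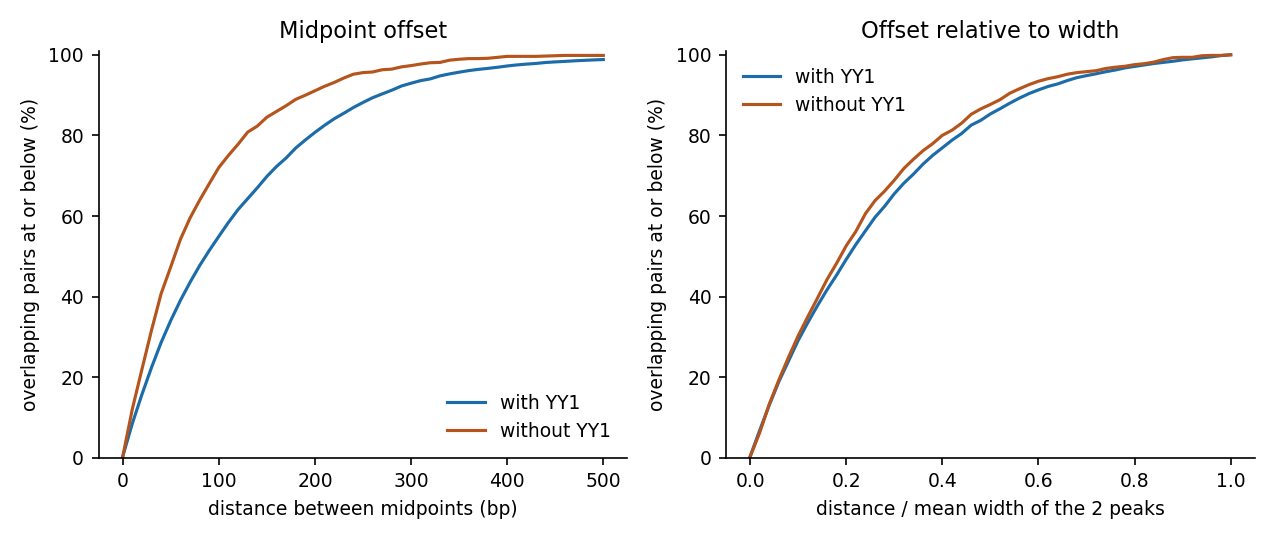
Cumulative share of overlapping NR2F2 and TEAD1 pairs, in percent, by the distance between midpoints in bp (left) and by that distance divided by the mean width of the 2 peaks (right), for 8893 pairs with and 1266 pairs without YY1. The curves are apart on the left (medians 86.5 and 54 bp) and nearly together on the right (0.205 and 0.190).

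RXRG, assigned by whether the NR2F2 peak of a pair met it, divided the pairs by shape. Wide NR2F2 peaks met RXRG more often. Among shared NR2F2 peaks with YY1, RXRG lay on 18.7% in the narrowest width class and 73% in the widest. The part of this in the widths and enclosures below was not tested. With YY1 and RXRG the NR2F2 peak was the wide one, at a median of 548 bp against 357 bp for TEAD1, and it enclosed the TEAD1 peak in 50.1% of 4967 pairs. With YY1 and no RXRG the order was the opposite, 332 bp for NR2F2 against 413 bp for TEAD1, and the TEAD1 peak was enclosed in 16.2% of 3926 pairs. Here the NR2F2 peak lay inside the TEAD1 peak in 30.0% of pairs, against 8.42% with RXRG. The median offset differed little, 89.5 bp with RXRG and 83 bp without it.

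NR2F2 and TEAD1 lay at nearly the same distance from YY1. In the 8854 combinations where 1 YY1 peak met both peaks of a pair, the NR2F2 midpoint was a median of 70 bp from the YY1 midpoint and the TEAD1 midpoint 75 bp. TEAD1 was the nearer in 48.4% (47.4 to 49.5%), with 0.463% equal. The YY1 midpoint lay between the other midpoints in 38.9% of combinations, that of NR2F2 in 30.9% and that of TEAD1 in 29.4%. The YY1 peak, at a median of 672 bp, enclosed the TEAD1 peak in 60.5% and the NR2F2 peak in 54.7%.

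Shared sites with YY1 lay in wider H3K27ac peaks than those without YY1, and at a more central relative position in them. Those without YY1 lay nearest the edge in H3K27ac peaks of 1 to 2 kb, not in the narrowest. Position was measured as the share of the way from the nearest edge (0) to the centre (1) of the H3K27ac peak. It was taken at the midpoint of the bases in common, and for peaks of 1 factor alone at the midpoint of the peak. With YY1 the median position was 0.701 in H3K27ac peaks of a median of 1335 bp, 416 bp from the edge. Without YY1 it was 0.584 in H3K27ac peaks of 640 bp, 160 bp from the edge. The order was the same in each of 4 classes of H3K27ac width: 0.831 against 0.706 under 500 bp, 0.722 against 0.576 from 500 bp to 1 kb, 0.704 against 0.347 from 1 to 2 kb, and 0.643 against 0.496 above. The last comparison rests on 78 pairs without YY1. Peaks of 1 factor alone showed the same order by YY1. NR2F2 peaks without TEAD1 stood at 0.699 with YY1 and 0.619 without it, and TEAD1 peaks without NR2F2 at 0.661 and 0.579. With YY1, shared sites thus had nearly the relative position of NR2F2 peaks without TEAD1. The latter lay in narrower H3K27ac peaks, of a median of 1078 bp, and closer to the edge in bp, at 334 bp.

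Where an acetylated region held both factors, they overlapped as a rule. Both were present in 9684 of 99514 H3K27ac peaks, and 8855 of these (91.4%) held at least 1 overlapping pair, while in 829 the peaks lay apart. The share was 91.5% of 8879 regions with YY1 and 91.3% of 805 without it. These regions differed in width, at a median of 1337 bp with YY1 and 591 bp without it. A narrow region leaves peaks less room to lie apart, and width was not held in comparing the shares. The part of placement within such regions in the 91.4% was not tested either. Of H3K27ac peaks that held NR2F2, 38.1% also held TEAD1, and of the others 12.4%. With YY1 in the region the shares were 62.7 and 46.0%, and without YY1 7.16 and 2.78%. Regions with a single pair numbered 8396, at a median width of 1203 bp, 417 held 2 pairs, 31 held 3, 10 held 4 and 1 held 5.

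The 725 shared NR2F2 peaks outside H3K27ac formed a small class, of which 416 lacked YY1 as well. Their median was 285 bp, between the 248 bp of unshared NR2F2 peaks outside H3K27ac and the 439 bp of shared ones inside. Their pairs had a median offset of 46.5 bp over 727 pairs, against 85.5 bp for pairs in H3K27ac, and their peaks were narrower. Median widths were 287 bp (NR2F2) and 242 bp (TEAD1) outside, against 444 and 364 bp inside. Divided by the mean width, the offset without YY1 was 0.191 outside and 0.188 inside. With YY1 it was 0.145 outside (309 pairs) and 0.207 inside. The nearest H3K27ac peak was a median of 1773 bp away where YY1 was present and 5230.5 bp where it was absent. For unshared NR2F2 peaks outside H3K27ac it was 9261 bp away, and for unshared TEAD1 peaks outside H3K27ac 2258 bp. The latter were thus closer to acetylation than shared NR2F2 peaks without YY1. RXRG lay on 28.2% of the shared NR2F2 peaks of this class with YY1 (23.4 to 33.4%). It lay on 26.8% of unshared NR2F2 peaks outside H3K27ac with YY1 (22.9 to 31.2%). Without YY1 it lay on 19.7% (16.2 to 23.8%) against 12.7% (12.2 to 13.3%).

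Peaks that did not meet the other factor were mostly far from it. The nearest TEAD1 peak was a median of 38298 bp from an NR2F2 peak without TEAD1, and 3.94% of these NR2F2 peaks had one within 500 bp. Unshared NR2F2 peaks with YY1 were closer, at a median of 20605 bp and with 12.3% within 500 bp, against 45416 bp and 1.73% without YY1. For TEAD1 peaks without NR2F2 the nearest NR2F2 peak was 16950 bp away with YY1 and 17775 bp without. In that list the distance hardly differed by YY1.

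Shared sites came mostly alone, with a few dense clusters. Merging overlapping peaks gave 9915 shared sites, of which 21.5% (20.7 to 22.3%) had another shared site within 10 kb. The share was 13.1% within 5 kb and 36.3% within 25 kb, and 14.1% within 10 kb when only the wider peaks of both lists were kept. Within 10 kb it was 20.9% for the 8669 sites with YY1 and 25.6% (23.3 to 28.1%) for the 1246 without, a difference not seen within 25 kb (36.3 and 36.2%). It was 34.6% (31.1 to 38.2%) for the 697 sites outside H3K27ac against 20.5% for those inside. Chains of neighbours up to 10 kb apart joined sites into 799 clusters of 2 or more, and 65 of these held 5 or more, with 473 sites in all, 404 of them with YY1. Of the 65 clusters, chromosome 1 held 15 and chromosome 19 held 9, where they had 1436 and 419 of the 10030 shared NR2F2 peaks. Peaks of 1 factor alone had another of their kind within 10 kb more often than shared sites did. The share was 33.9% of 31782 NR2F2 peaks without TEAD1 and 27.7% of 16360 TEAD1 peaks without NR2F2. Counts of neighbours grow with the length of a list, so they were also taken from the NR2F2 list alone. Another NR2F2 peak lay within 10 kb of 45.8% of shared and 40.1% of unshared NR2F2 peaks, and of 57.3% of shared peaks without YY1. Where such a neighbour existed, it was itself shared for 39.9% of shared peaks (38.5 to 41.3%) and for 21.6% of unshared peaks (20.9 to 22.3%).

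The largest cluster was on chromosome 1, from 56895943 to 56978805 (build rn5), with 18 shared sites over 82.9 kb, 17 of them with YY1 and 16 in H3K27ac. A cluster of 15 sites lay 12.3 kb before it, from 56842094 to 56883680. Across both, 137 kb held 46 NR2F2 peaks, of which 35 met TEAD1, with 42 TEAD1, 37 YY1, 43 RXRG, 30 H3K27ac and 5 nerve SREBP1 peaks. The region was picked for its many shared sites, which raises the counts of the lists that go with them. The second largest cluster, on chromosome 16 from 21909973 to 21980507, had 16 shared sites, 15 of them with YY1 and 14 in H3K27ac. Copy number of these regions in S16 is not given by the files.

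**Figure D5:**
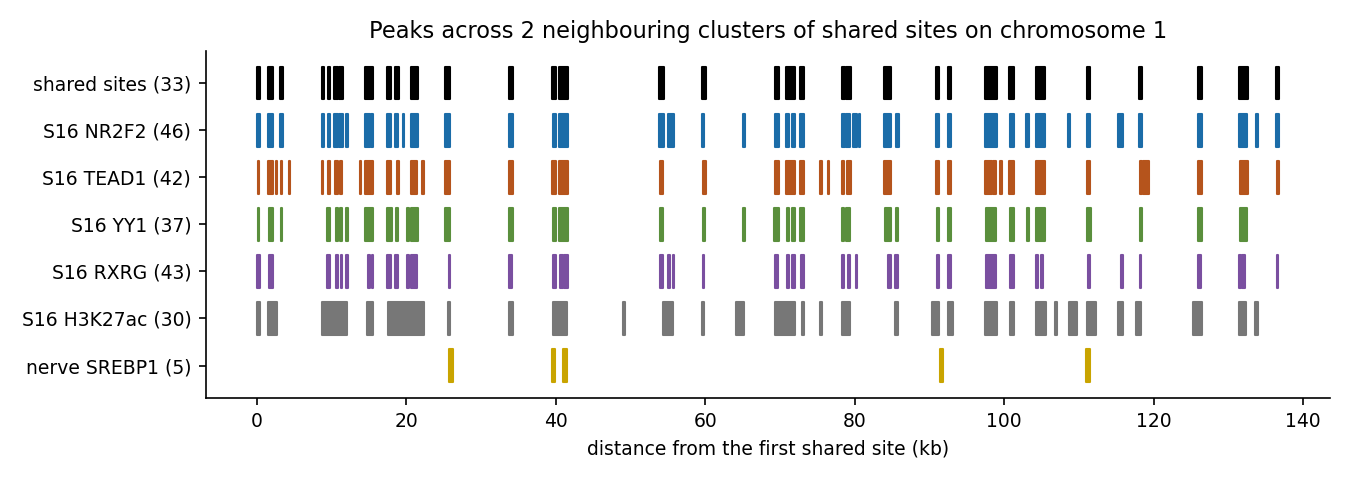
Peaks of each list across the 2 neighbouring clusters of 15 and 18 shared sites on chromosome 1, as blocks along the distance in kb from the first shared site, with the number of peaks per row in brackets. The 33 shared sites spread over 137 kb, where 35 of the 46 NR2F2 peaks meet TEAD1 and nerve SREBP1 has 5 peaks.

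The shares varied by chromosome, but the YY1 contrast did not change direction. Over the 21 placed chromosomes (1 to 20 and X), the share of NR2F2 peaks meeting TEAD1 went from 16.1% on X to 29.0% on chromosome 10, with a median of 24.3%. NR2F2 peaks with YY1 met TEAD1 more often than those without on 21 of 21, from 44.0 to 62.5% against 2.35 to 7.33%. The TEAD1 peak of a pair was wider with YY1 on 21 of 21, and the offset was larger with YY1 on 19 of 21. RXRG was more frequent on NR2F2 peaks with TEAD1 than without it on 21 of 21 chromosomes where YY1 was absent, and on 10 of 21 where it was present. Chromosome X had the lowest share of shared peaks with YY1, 67.7% against a median of 87.3%, and the highest share of RXRG on shared peaks with YY1, 72.1%. Chromosomes come from the same libraries and are not replicates.

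Single sites show the classes. They are named by position, since the gene table at hand is of another build than the rn5 coordinates of the files. The widest shared NR2F2 peak, on chromosome 1 from 13503251 to 13506720 (3470 bp), held TEAD1 peaks of 748 and 1467 bp, with YY1, RXRG, SREBP1 and H3K27ac. Another on chromosome 1, from 100133855 to 100136923 (3069 bp), held TEAD1 peaks of 1779 and 966 bp. Between them in width was a peak on chromosome 14, from 46855436 to 46858729 (3294 bp), with TEAD1 peaks of 1163 and 162 bp. Each of these peaks thus belongs to the few that met more than 1 TEAD1 peak.

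Without YY1 the widest shared NR2F2 peak was on chromosome 7, from 22222056 to 22223477 (1422 bp). Its TEAD1 peak, 22222177 to 22222355, was 179 bp wide, lay 500 bp from the NR2F2 midpoint and was enclosed by the NR2F2 peak. The next were on chromosome 9, from 21650808 to 21651986 with a TEAD1 peak of 562 bp, and from 113890914 to 113892041 with one of 240 bp. All 3 met RXRG and H3K27ac and none met SREBP1.

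Outside H3K27ac and without YY1, the widest was on chromosome 13, from 31948420 to 31949416 (997 bp), with a TEAD1 peak of 190 bp and an RXRG peak. The following ones, on chromosome 1 from 283250781 to 283251630 (850 bp) and on X from 73774393 to 73775234 (842 bp), met no other list. The X site held TEAD1 peaks of 203 and 188 bp.

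Among peaks without the other factor, the widest NR2F2 peak was on chromosome 11, from 61516076 to 61517785 (1710 bp), with RXRG and H3K27ac but no YY1. Those on chromosome 3, from 183586532 to 183588212 (1681 bp), and chromosome 9, from 7676691 to 7678292 (1602 bp), met YY1, RXRG and H3K27ac. The widest TEAD1 peak without NR2F2 was on chromosome 6, from 147089413 to 147091437 (2025 bp), with YY1 and H3K27ac and without RXRG. The next, on chromosome 14 from 18668615 to 18670107 (1493 bp), met YY1, H3K27ac and SREBP1. The third, on chromosome 4 from 9540019 to 9541292 (1274 bp), met none of the other lists.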

How the data were processed

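The authors deposited each of the 6 peak lists as chromosome, start and end, without counts, heights or p-values, and SREBP1 also with a score that is 1 in every peak, all of them 485 bp wide. Bowtie2, MACS2, bedtools, deepTools and bcl2fastq 2.20.0.422 and the build rn5 are named in the submitters' processing notes. Of roles, settings, thresholds, controls and pooling, the sources used here say nothing. The series has 7 samples, and no list for the nerve input was analysed here. All peaks but the mitochondrial were used (13 dropped for NR2F2, 9 for TEAD1). The NR2F2 list also has 97 peaks off the placed chromosomes, where TEAD1 has none. Peaks in coordinates counted from 1 met when at least 1 bp was in common. In each pair, YY1, RXRG and H3K27ac were assigned by the NR2F2 peak. Shares have Wilson intervals. Clusters joined shared sites up to 10 kb apart. Sites were named by a rule: the 3 widest of each class and the 3 largest clusters. The members and classes were chosen with earlier results of these data known. Overlap counts were checked against bedtools and on simulated lists. No sequence was read, since no rn5 genome was used here. Python 3.11.15, NumPy 2.4.6, SciPy 1.17.1, pandas 2.3.3 and Matplotlib 3.10.9 were used. Alternatives changed the overlap rule, the peaks kept, the joining of near peaks and the cluster distance.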

Additional observations from a re-analysis of the deposited data

Results flagged for a closer look

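Mitochondrial peaks were left out of all comparisons, yet they overlapped too. The NR2F2 list has 13 and the TEAD1 list 9, and 7 of the NR2F2 peaks met a mitochondrial TEAD1 peak. The mitochondrial genome is small, so that peaks of these widths can meet by placement alone, and the count does not show an excess of overlap. Of these 7 peaks, 6 also met a YY1 and 6 an RXRG peak. No CUT&RUN control library was analysed here.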

How the results depend on the processing

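The 10 main results and 6 contrasts added after seeing the data were recomputed under alternative settings, which gave 104 values. None changed the sign of a difference whose interval excluded 0. Of the 64 values for the main results, 41 stayed within the 95% interval of the original. Asking for 50% of the shorter peak or for a midpoint within the other peak gave nearly the same pairs: 22.4% of NR2F2 and 35.6% of TEAD1 peaks were shared, with an offset of 72.5 bp under either. Without the widest 1% of both lists the shares were 23.0 and 36.5%, the offset 77 bp, RXRG 52.1% and the NR2F2 width difference 137 bp. When only the peaks above each list's median width were kept, the shares were 21.7 and 34.4%, YY1 96.3%, H3K27ac 97.2%, RXRG 62.3%, the offset 89 bp, the width differences 128 bp (NR2F2) and 61 bp (TEAD1), the position 0.730 and the clustered share 14.1%. The clustered share was 13.1% within 5 kb and 36.3% within 25 kb. Shared sites without YY1 had a neighbour more often than those with YY1 at 5 kb (16.5 against 12.6%) and 10 kb, but not at 25 kb (36.2 against 36.3%). The difference in RXRG on NR2F2 peaks with YY1 was between -1.10 and 1.60 percentage points in 5 settings and -6.15 among the wider peaks. Motif shares were not run, for want of an rn5 sequence here. No paired analysis was possible because each target has 1 library.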

Other observations

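Nerve SREBP1 was more frequent on TEAD1 peaks without NR2F2 where YY1 was absent, and less frequent where it was present. It lay on 9.48% of TEAD1 peaks with neither NR2F2 nor YY1 (8.76 to 10.2%, 570 of 6015) and on 2.07% of those with NR2F2 and no YY1 (27 of 1304). With YY1 the order was the opposite, 27.4% without NR2F2 and 36.1% with it. Outside H3K27ac, TEAD1 peaks with neither factor still held SREBP1 at 7.20% (281 of 3903).

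Most TEAD1 peaks had no other TEAD1 peak within 10 kb, in each class by NR2F2 and YY1. One lay within 10 kb of 34.2% of those that met NR2F2 without YY1 and 40.2% of those that met NR2F2 with YY1. For unshared TEAD1 peaks it was 38.8% with YY1 and 34.6% without. Where shared TEAD1 peaks without YY1 had such a neighbour, the nearest was also shared in 73.5% of cases (69.3 to 77.4%, 328 of 446). For shared TEAD1 peaks with YY1 this share was 49.1% (47.4 to 50.7%), and for unshared ones 28.6% with YY1 and 36.8% without it. In the NR2F2 list the order by YY1 was the opposite: the nearest peak within 10 kb was shared for 29.4% of shared peaks without YY1 (212 of 722) and 41.9% of those with it.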
